A study of Mus musculus with 3 samples.

Results

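The genes described here were those whose array intensity differed by 1.6-fold or more between the 2 short hairpin RNAs used to knock down *Tet1*. They were chosen by their readout: named rows of the comparison table in which intensity under hairpin 2 was at least 1.6 times, or at most 0.625 times, that under hairpin 1, and the 3 arrays averaged 100 units or more. The brightest such row stood for each gene. Of 1197 named genes 76 met these limits, 16 were left out by symbol (collagens, solute carriers, Trim, Oas, chemokine and other families, and single genes such as *Prg4*, *Il6* and *Gpnmb*), and 60 remained. As background, 7.45% of the 1328 named probe sets averaging 100 units or more were past 1.6-fold between the hairpins, 4.52% higher and 2.94% lower under hairpin 2. Over all 27311 probe sets averaging that much the share was 12%, 6.14% higher and 5.85% lower. That near-even split depended on probe sets whose identifiers lie below the lowest named one: without them the share was 9.19%, 3.22% higher and 5.97% lower. Since this ratio chose the 60 genes, these shares say nothing further about them.

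RNA was taken on day 15 of chondrogenic culture from ATDC5 cells, a teratocarcinoma-derived mouse chondroprogenitor line that is induced with insulin, transferrin and selenium. The control (NT) carried a nontarget hairpin, and the knockdown (KD) cultures carried Tet1sh1 (hairpin 1) or Tet1sh2 (hairpin 2). All hairpins were delivered by lentivirus, with selection of transduced cells in puromycin before differentiation per the study's methods. The labels give all 3 cultures as wild-type. Each group was 1 array of a bulk culture, so no value has a replicate error, no test was made between hairpins, and hairpin, culture and array cannot be told apart. A lower level in a bulk culture can mean fewer cells of a type or less RNA per cell, which cannot be told apart either.

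A short hairpin RNA is cut by the cell into a small guide RNA that directs the breakdown of transcripts it pairs with. Hairpins against the same gene pair with different stretches of its mRNA and can differ in strength, and each can also pair in part with other transcripts. TET1 oxidizes 5-methylcytosine to 5-hydroxymethylcytosine, a step toward active demethylation of DNA. ATDC5 cells in this culture pass from progenitors to chondrocytes that make collagen II and aggrecan.

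The targeted gene was lower than NT under both hairpins on all 3 of its probe sets. On the brightest, *Tet1* measured 1626 units in NT, 843 with hairpin 1 and 726 with hairpin 2. On the next it measured 1185, 625 and 553 units, and on the dimmest 400.2, 146 and 188 units. Hairpin 2 over hairpin 1 was thus 0.861 and 0.884 on the brighter probe sets and 1.29 on the dimmest, so the order of the hairpins for *Tet1* itself depended on the probe set. Of the chondrocyte markers named in the files, *Col2a1* measured 4914 units in NT, 2279 with hairpin 1 and 1414 with hairpin 2, and *Acan* 1427, 223 and 160.3 units. Both were lowest under hairpin 2. Of the 9 named cartilage matrix genes 3 were higher under hairpin 2 than under hairpin 1: *Cytl1*, *Scrg1* and *Prg4*, with ratios of 1.33, 1.10 and 3.17. *Cytl1* (1482 units in NT, 4439 with hairpin 1 and 5910 with hairpin 2) and *Prg4* (85.1, 469 and 1486 units) were above NT under both. *Scrg1*, at 511, 65.7 and 72.15 units, was far below NT under both and dim in the knockdown arrays.

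The 60 genes fell into 4 patterns, and all 60 were on the same side of NT under both hairpins. The authors had kept named probe sets on the difference of both *Tet1* arrays from NT, so agreement in side is a property of the table: all 1197 named genes were on one side, against 75.1% of probe sets averaging 100 units or more. In 30 genes intensity was higher than NT and further from it under hairpin 2. In 23 it was lower than NT and further from it under hairpin 2. In 5 it was higher than NT and further under hairpin 1, and in 2 it was lower than NT and further under hairpin 1. Hairpin 2 was therefore the more distant array for 53 of the 60 genes (88.3%), beside 65.2% of all named genes and 69.1% of all probe sets averaging 100 units or more. The ratio between hairpins and the side of NT were both used to choose the 60 genes, so these shares are a description, and no excess is read from them.

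**Figure D1:**
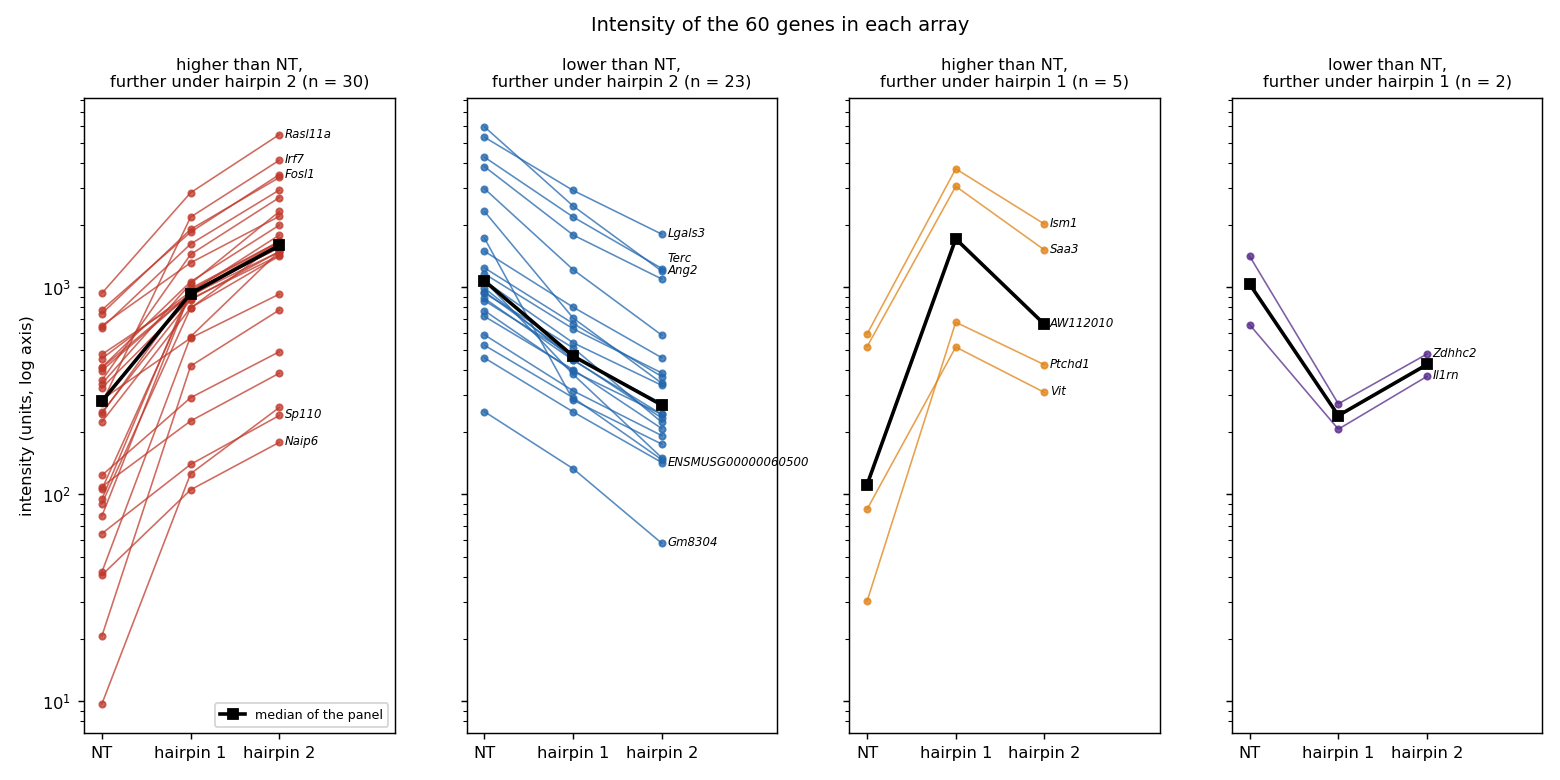
Intensity in units on a log axis for each of the 60 genes in the NT, hairpin 1 and hairpin 2 arrays, 1 line per gene and 1 panel per pattern, with the median of the panel in black. The 30 genes of the first panel had medians of 280.7, 931 and 1591 units in the 3 arrays, and the 23 of the second had medians of 1073, 465 and 269 units.

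Against NT, all 60 genes were past 1.5-fold under each hairpin, 35 of them higher and 25 lower. Over all probe sets averaging 100 units or more, 6.01% were that much higher and 7.86% that much lower under hairpin 1, and 12.1% and 18.4% under hairpin 2. Of the named probe sets, which the authors had selected on this difference, 60.3% were higher and 39.7% lower under each. The gene nearest to NT was *Il1rn* under hairpin 2, at 1.78-fold lower. On the log2 scale the fold under hairpin 1 was a median of 63.8% of that under hairpin 2 in the first pattern (range 57.5% to 82.8%) and 54.9% in the second (range 42.4% to 78.6%). Among all named genes of these 2 patterns the medians were 84.5% and 82.1%. The limit between hairpins that chose the 60 genes lowers these shares, so they are a description and no strength of a hairpin is read from them.

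**Figure D2:**
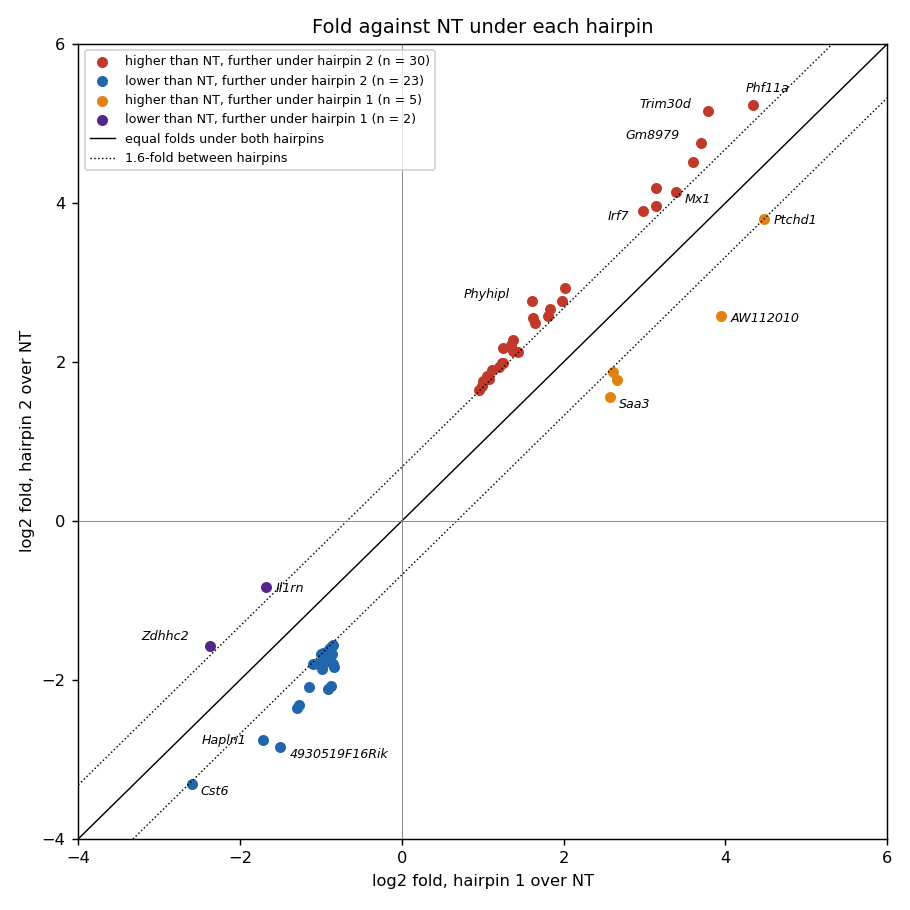
Log2 fold over NT under hairpin 1 (horizontal) and hairpin 2 (vertical), 1 point per gene, coloured by pattern, with the line of equal folds and the limits of 1.6-fold between hairpins. All 60 points lie in the quadrants where both folds have the same sign, and 53 lie further from 0 on the vertical axis than on the horizontal.

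Of the 30 genes of the first pattern 7 are on the list of type I interferon-stimulated genes. Of all 1197 named genes 49 are on it, and all 49 were higher than NT under hairpin 2. The 1197 include genes lower than NT, and the 49 include Oas and Trim genes that the rule left out. These counts rest on unlike sets, so no excess is read from them. Interferons signal through cell surface receptors to switch on antiviral genes, many of which carry a sequence called the interferon-stimulated response element (ISRE) in their promoters. *Irf7*, the transcription factor that amplifies interferon production, measured 275 units in NT, 2181 with hairpin 1 and 4104 with hairpin 2. The hairpins differed 1.88-fold, and both arrays were far above NT. *Ddx60*, a helicase linked to antiviral RNA sensing, measured 89.9, 792 and 1645 units, a 2.08-fold difference between hairpins. *Sp100*, a nuclear body component, measured 78.4, 948 and 1786 units. *Mx1*, an antiviral GTPase whose gene is annotated as a transcribed pseudogene in the reference strain, measured 94.5, 986 and 1665 units. In these 3 genes NT was under 100 units and the step between hairpins was small beside the step from NT.

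*Trim30d* (listed as AI451617), of the TRIM family, had the highest ratio of the 60 genes. It measured 42.0 units in NT, 577 with hairpin 1 and 1493 with hairpin 2, a 2.59-fold difference between hairpins. *Phf11a* (listed as Phf11), a PHD finger gene, measured 20.6, 416 and 776 units, and *Gm8979* (listed as EG668108), a transcribed pseudogene, 9.69, 126 and 262 units. The deposited standard error of the NT intensity over the probes of *Phf11a* was 12.98 units, or 62.9% of its value, the largest share among the 60 genes, so its fold over NT is poorly determined while its ratio between hairpins does not use NT. *Herc6* (listed as Herc5), the main ligase that attaches ISG15 in mouse, measured 355, 1439.5 and 2709.96 units. *Irf5*, a transcription factor that acts downstream of Toll-like receptors, measured 248, 868 and 1487 units, and *Sp110* 64.5, 139 and 240.1 units. Every one of these genes was lowest in NT and highest under hairpin 2. *Trim30d*, *Phf11a*, *Sp100* and *Sp110* belong to families of similar sequence, so values of single members are uncertain.

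Most named interferon-stimulated genes were within 1.6-fold between the hairpins. Of 57 genes on the type I list 49 were named, 33 of them higher under hairpin 2 and 16 under hairpin 1, with a median log2 ratio of 0.13 (hairpin 2 over hairpin 1) beside 0.03 for all named genes. Past 1.6-fold were 9, of which 7 are among the 60 genes and the others, *Oas1b* and *Oas2*, had been left out by symbol. All 9 were higher under hairpin 2. Among named probe sets averaging 100 units or more 4.52% were that much higher under hairpin 2. The list was written with earlier results of these data known, so no excess is read from the count. *Isg15*, the ubiquitin-like modifier, measured 187 units in NT, 1252 with hairpin 1 and 1132 with hairpin 2. *Ifit1*, which binds foreign RNA, measured 3003, 9495 and 8830.3 units. On the list of interferon-gamma response and antigen presentation, *Irf5* was the sole gene of 23 named to pass 1.6-fold, and the median log2 ratio was -0.14, with 15 of the 23 higher under hairpin 1.

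Promoter sequence was looked up for the 60 genes to show which of them hold the ISRE core (GAAA, any pair of bases, GAAA) or the AP-1 site (TGANTCA) within 250 bases upstream of an annotated start. RefSeq promoters (GRCm38.p6) were at hand for 36 of the 60 genes. Both strands of these were searched, and none of the 36 held both motifs. The ISRE core was found in 4 of the 36 (11.1%) and in 3.46% of the 27025 genes of that table, and the AP-1 site in 2 (5.56%) and in 7.82%. The ISRE core was in 3 of 24 genes higher under hairpin 2 and in 1 of 12 higher under hairpin 1. For the AP-1 site the counts were 2 of 24 and 0 of 12. The 36 come from genes the authors selected and the 27025 do not, so no excess is read from these shares. The windows with a match are printed in the direction of the gene, with the matched bases in capitals, because they belong to genes at both ends of the ratio between hairpins.
*Ddx60*, chr8:61928004-61928086, plus strand: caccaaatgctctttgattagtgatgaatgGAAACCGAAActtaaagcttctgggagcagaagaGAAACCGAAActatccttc
*Trim30d*, chr7:104507851-104507920, minus strand: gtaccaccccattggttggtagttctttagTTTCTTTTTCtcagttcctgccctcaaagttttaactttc
*Phf11a*, chr14:59297523-59297581, minus strand: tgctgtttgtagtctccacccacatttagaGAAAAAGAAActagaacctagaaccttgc
*Saa3*, chr7:46715762-46715831, minus strand: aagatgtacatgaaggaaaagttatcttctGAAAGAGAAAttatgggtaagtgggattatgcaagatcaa
*Il1rn*, chr2:24336689-24336755, plus strand: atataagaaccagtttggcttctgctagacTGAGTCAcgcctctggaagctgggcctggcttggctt
*Ripply1*, chrX:139782376-139782442, minus strand: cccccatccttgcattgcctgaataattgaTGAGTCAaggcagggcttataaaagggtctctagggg
The first 4 hold the ISRE core, with 2 copies in *Ddx60* and with the match of *Trim30d* on the opposite strand, and the last 2 hold the AP-1 site. *Ddx60*, *Trim30d* and *Phf11a* were higher under hairpin 2 and *Saa3* was higher under hairpin 1, so the same letters stood in promoters of genes with opposite order of the hairpins. A match is a description of the sequence and not a site of binding.

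Of the genes on the list of AP-1 and immediate early genes, which encode transcription factors and feedback regulators that respond to growth factors and cytokines, 3 were in the first pattern. *Fosl1*, the AP-1 subunit FRA-1, measured 777 units in NT, 1845 with hairpin 1 and 3499 with hairpin 2, a 1.90-fold difference between hairpins. *Nr4a3*, an orphan nuclear receptor of the immediate early class, measured 637, 1616 and 2946 units. *Jdp2*, a basic leucine zipper protein that pairs with JUN, measured 395, 929 and 1562 units. *Plau*, which encodes the secreted protease urokinase and is on the list of the plasminogen system and matrix proteases, measured 652, 1312 and 2199.9 units. The 3 arrays had the same order in all 4 genes, and the step from hairpin 1 to hairpin 2 lay between 1.68-fold and 1.90-fold. Of 33 AP-1 and immediate early genes 7 were named. The 3 past 1.6-fold were these 3 factors, and *Myc* and *Junb* were near equal under the hairpins, at 4747 and 4563 units and at 3430.3 and 3380.1 units. Among named probe sets averaging 100 units or more 4.52% were past 1.6-fold higher under hairpin 2. The rule chose these 3 factors by this ratio, so no excess is read from the count.

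*Il1r1*, the signalling receptor of interleukin-1, measured 223 units in NT, 795 with hairpin 1 and 1415 with hairpin 2, a 1.78-fold difference between hairpins. *Cflar*, the inhibitor of caspase-8 also called c-FLIP, measured 109, 226 and 384 units. *Ptprj*, a receptor tyrosine phosphatase, measured 245, 967 and 1664 units. *Spsb1*, a substrate adaptor of ubiquitin ligases, measured 326, 878 and 1425 units, and *Rasl11a*, a small GTPase of the Ras family, 934, 2861 and 5460 units. *Naip6* (listed as Birc1f), of the family of inflammasome receptors, measured 40.7, 105 and 178 units. *Il1r1*, *Ptprj* and *Rasl11a* were past 3-fold over NT even under hairpin 1, while *Cflar* was at 2.08-fold and *Naip6* was dim in all arrays.

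The other genes of this pattern have diverse roles. *Hivep3*, a zinc finger protein that restrains bone formation in mice, measured 288 units in NT, 902 with hairpin 1 and 1619 with hairpin 2. *Cxxc5*, a CXXC zinc finger protein of the domain family that binds unmethylated CpG, measured 408, 934 and 1562 units. Of the 4 named genes on the list of TET, DNA methylation and CXXC genes it was the one past 1.6-fold between hairpins. *Ripply1*, a transcriptional repressor of somite formation, measured 106, 933 and 1647 units, with a deposited NT standard error of 48.48 units. *Prickle2*, a planar cell polarity protein, measured 452, 953 and 1551 units. *Plxna3*, a semaphorin co-receptor, measured 473, 917 and 1483 units, and *Ina*, a neuronal intermediate filament, 286, 568 and 926 units. These last 3 were close to the limit of 1.6, at 1.62-fold to 1.63-fold. *Phyhipl* had the next highest ratio of hairpin 2 over hairpin 1 after *Trim30d*, at 2.23, and measured 342, 1040.5 and 2321 units. *Glipr2* measured 746, 1902 and 3388 units. *BC015286* and the predicted gene ENSMUSG00000050974 were also in this pattern, with hairpin ratios of 1.67 and 1.88.

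In the second pattern, 23 genes were lower than NT under hairpin 1 and lower still under hairpin 2. *Hapln1*, the link protein that holds aggrecan to hyaluronan in cartilage, measured 2323 units in NT, 709 with hairpin 1 and 343 with hairpin 2. It was 2.07-fold lower under hairpin 2 than under hairpin 1. *Enpp3*, an ectonucleotide phosphodiesterase, measured 2993, 1215 and 586 units. *Ang2*, here a ribonuclease of the angiogenin family and not angiopoietin-2, measured 5954, 2466 and 1194 units. *Cst6*, a cystatin that inhibits cysteine proteases, measured 1727, 285 and 174 units, the largest distance from NT in this pattern at 6.07-fold and 9.90-fold. In *Hapln1*, *Enpp3* and *Ang2* each array had less than 0.5 times the intensity of the one before, in the order NT, hairpin 1, hairpin 2, whereas in *Cst6* hairpin 1 showed 78.6% of the log2 distance seen with hairpin 2.

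*Lgals3*, the lectin galectin-3 that chondrocytes and macrophages make, measured 5306 units in NT, 2933 with hairpin 1 and 1803 with hairpin 2. *Ldhb*, a subunit of lactate dehydrogenase, measured 1073, 539 and 336 units. *Gdpd3*, of the glycerophosphodiester phosphodiesterase family, measured 953, 462 and 274.5 units, and the zinc finger gene *Zfp560* 937, 509 and 222 units. *4930519F16Rik* measured 1074, 379 and 149.8 units, and its 2.53-fold difference between hairpins was the largest of this pattern. *Fam135b* (listed as 1700010C24Rik) measured 589, 316 and 192 units. Under hairpin 1 the protein-coding members of this pattern were a median of 2.10-fold below NT, and under hairpin 2 a median of 3.86-fold.

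Core histones, a telomerase RNA, pseudogenes and genes without a RefSeq match made up much of the rest of this pattern. *H4c3* (listed as Hist1h4c), a histone H4 gene, measured 861 units in NT, 465 with hairpin 1 and 269 with hairpin 2. *H2bc18* (listed as Hist2h2bb), a histone H2B gene, measured 3826, 1787 and 1095 units. The third named histone gene, *H1f1*, measured 2315, 1053 and 868 units and was within the limit between hairpins. *Terc*, the RNA template of telomerase, measured 4251, 2183 and 1231 units. *Rps24-ps2* (listed as EG383815), a ribosomal protein pseudogene, measured 1239.96, 668 and 369.8 units. Histone genes and pseudogenes share sequence with their copies, so these values are uncertain for the single gene.

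Of the 23 genes of the second pattern, 11 (47.8%) were annotated as other than protein coding or did not match a RefSeq gene, 4 and 7 of each. In the first pattern this held for 4 of 30 (13.3%), and among all named genes for 96 of 1197 (8.02%). Beside *Terc* and *Rps24-ps2* the 11 were the pseudogenes *Gm8304* and *Gm4987*, *1700047G07Rik*, EG546080, and 5 predicted genes listed only by database identifiers. They were alike in size: NT was 1.79-fold to 2.21-fold above hairpin 1 and 3.01-fold to 4.33-fold above hairpin 2. *Gm8304* (listed as EG666814) was the sole one of the 60 genes under 100 units in a knockdown array, at 251 units in NT, 133 with hairpin 1 and 57.9 with hairpin 2. *Gm4987* (listed as EG245405) measured 723, 399.8 and 207 units. The least of these distances from NT is set by the authors' selection, which kept probe sets whose 90% bound was past 1.5-fold. These shares describe genes chosen by their values, and no test was made on them. The 1197 named genes include those higher than NT, so these shares rest on unlike sets. The share among named genes lower than NT was not counted, and no excess is read from 47.8%.

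Only 7 genes were further from NT under hairpin 1. *Saa3*, an acute-phase serum amyloid protein, measured 515 units in NT, 3071 with hairpin 1 and 1512 with hairpin 2, so it was 2.03-fold higher under hairpin 1. *AW112010*, a long noncoding RNA known from activated immune cells, measured 111, 1712 and 661 units, and its 2.59-fold excess under hairpin 1 was the largest of the 60 genes in that direction. *Ism1* (listed as 5430433G21Rik), a secreted protein, measured 593, 3731 and 2018 units. *Vit*, which encodes the matrix protein vitrin, measured 84.4, 514 and 310.1 units, and *Ptchd1*, a patched-domain membrane protein, 30.3, 677 and 422 units. In all 5 both knockdown arrays were at least 2.93-fold above NT.

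The remaining pair was lower than NT and lowest under hairpin 1. *Zdhhc2*, a palmitoyltransferase, measured 1414 units in NT, 273 with hairpin 1 and 476 with hairpin 2. *Il1rn*, the secreted antagonist of the interleukin-1 receptor, measured 659, 206 and 371 units. With *Il1r1* and *Saa3* it made 3 genes linked to interleukin-1 with 3 different patterns: the receptor was highest under hairpin 2, the antagonist was lowest under hairpin 1, and the acute-phase gene was highest under hairpin 1. On the list of inflammatory cytokines and NF-kB targets 17 of 34 genes were named, 9 of them higher under hairpin 2 and 8 under hairpin 1, with a median log2 ratio of 0.01. *C3*, the central complement component, measured 531, 2645 and 2318 units.

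**Figure D3:**
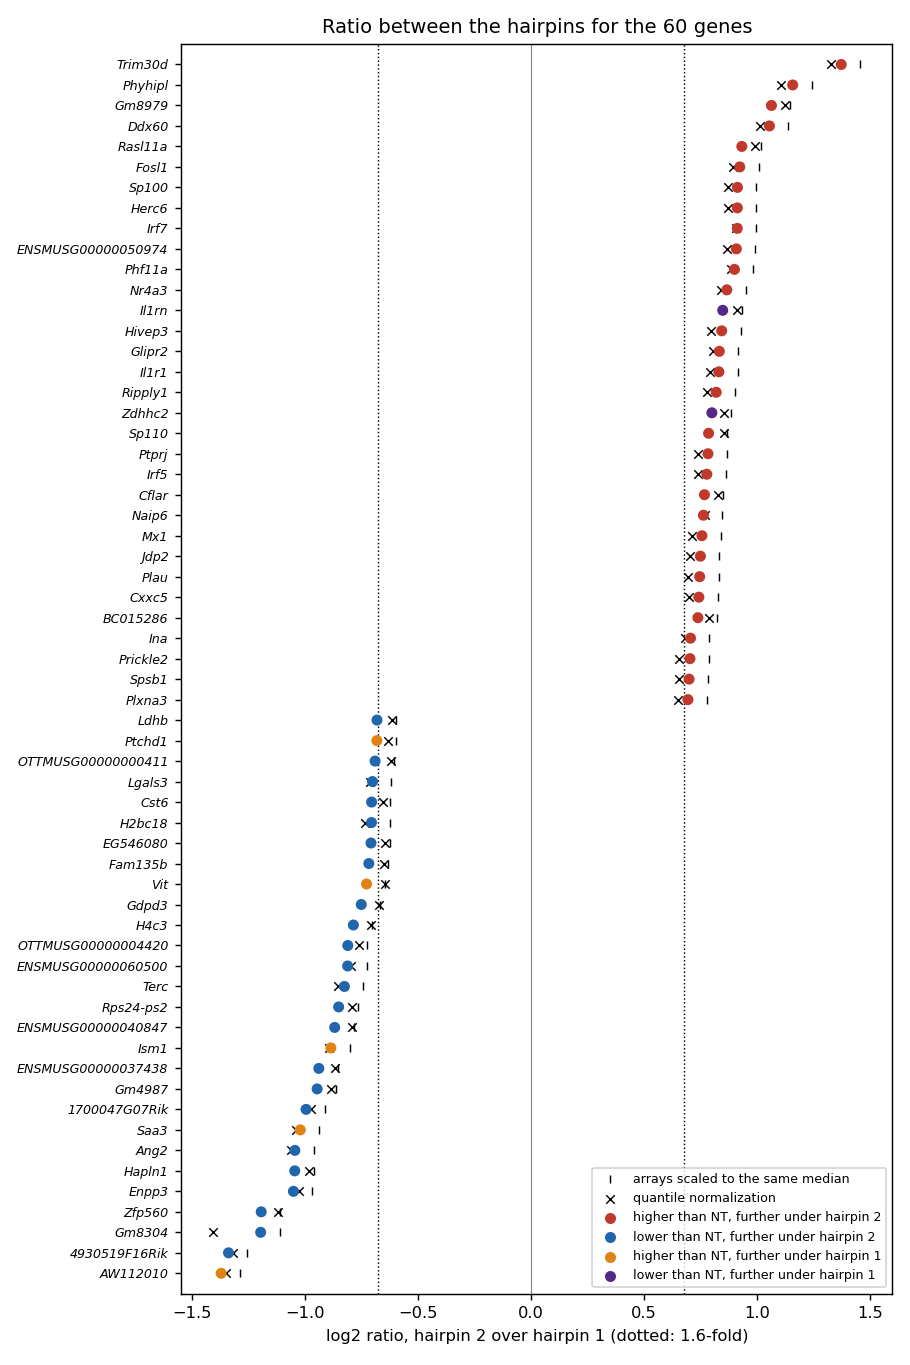
Log2 ratio of hairpin 2 over hairpin 1 for each of the 60 genes (coloured points), sorted, with the ratio after scaling the arrays to the same median (bars) and after quantile normalization (crosses). The dotted lines mark 1.6-fold. Of the 60 genes 32 lie to the right of 0 under all 3 settings, and 50 stay past the limits after median scaling and 49 after quantile normalization.

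The split between directions depended on how the arrays were scaled. As deposited, 32 of the 60 genes (53.3%) were higher under hairpin 2. The median intensity of all probe sets was 304.6 units in NT, 279.6 with hairpin 1 and 263.9 with hairpin 2, which is a log2 shift of -0.12 and -0.21 from NT. With the arrays set to the same median, the rule found 61 genes, 43 higher and 18 lower under hairpin 2 (70.5% higher), of which 50 were among the 60. No gene of the 60 changed its direction under median scaling, quantile normalization or an offset of 32 units. For the offset and median scaling that was fixed in advance. An offset keeps the order of the arrays, and median scaling shifts every gene alike. The array medians differed by a log2 ratio of -0.08 (hairpin 2 over hairpin 1), far less than the 1.6-fold limit. Only quantile normalization could have reversed a gene. The 10 genes that left the set after median scaling were all higher under hairpin 1, as that shift requires.

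Just inside the upper limit were *Plxna3*, *Spsb1* and *Prickle2*, with ratios of 1.62, 1.62 and 1.63, and just outside it *Fancb*, *Gm7609* and *Sfrp1*, with 1.59, 1.58 and 1.57. Just inside the lower limit were *Ldhb*, *Ptchd1* and OTTMUSG00000000411, with ratios of 0.623, 0.623 and 0.619. Just outside it were OTTMUSG00000015632, *Itm2a* and *Dpt*, with 0.628, 0.63 and 0.632. Ratios formed a continuous series across both limits, so the set has no natural edge.

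Other probe sets of the same genes gave a smaller difference between hairpins in the same direction. Named second probe sets existed for 4 of the 60 genes. *Cflar* had 2 brighter probe sets, at 244, 460.2 and 627 units and at 183, 421.9 and 571 units, where hairpin 2 over hairpin 1 was 1.36 and 1.35 and not 1.70. *Ldhb* had a second probe set at 917, 469 and 357 units, with a ratio of 0.762. *Ptchd1* had a much brighter one at 702, 4750 and 3286 units, with a ratio of 0.692. Of these 4 other probe sets 0 were past 1.6-fold, so *Cflar* and *Ptchd1* belong to the set only through their dimmer probe sets. For the brighter probe sets of *Cflar* and *Ptchd1* a difference under 1.6-fold was fixed in advance, since the rule took the brightest row past the limits. Their direction was free, and so was the size of the difference on the second probe set of *Ldhb*. The second probe set of *Sp110* held the same 3 values as the first and adds nothing.

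**Figure D4:**
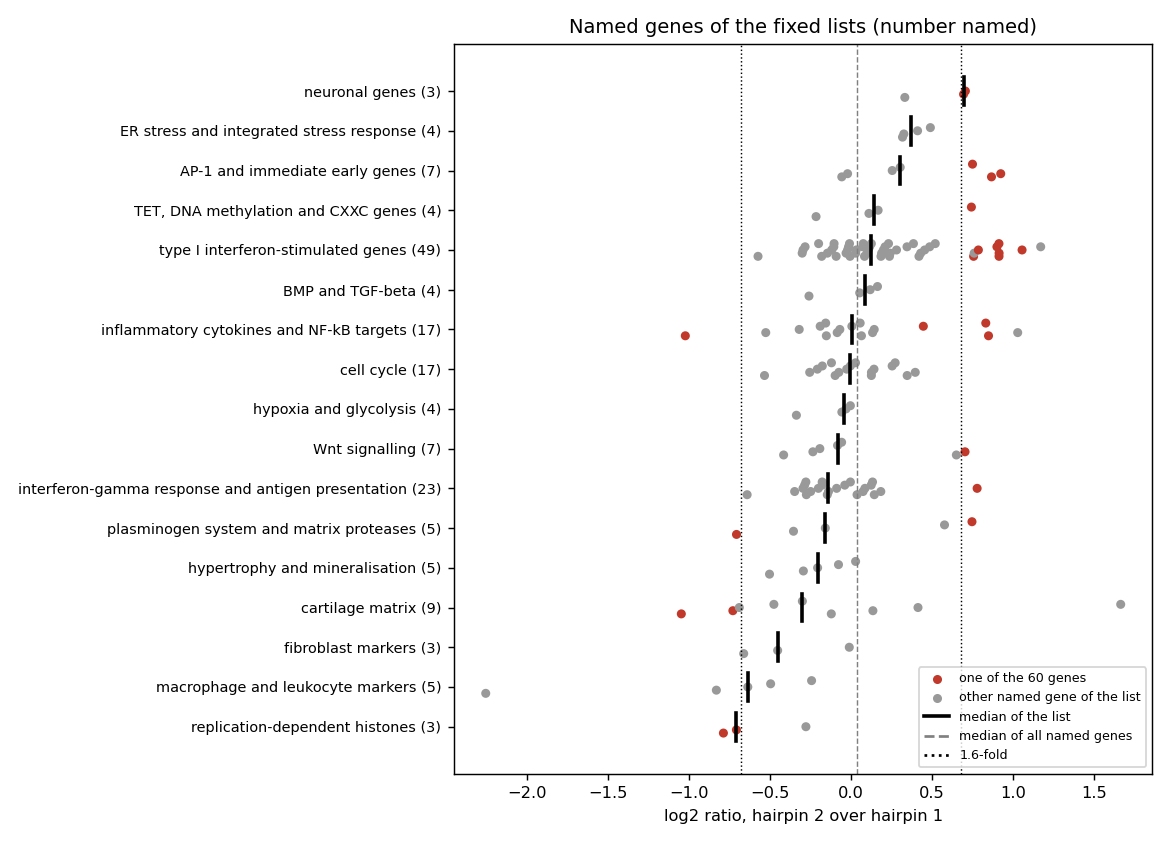
Log2 ratio of hairpin 2 over hairpin 1 for every named gene of each list with at least 3 named genes, on the brightest probe set of the gene, with the median of the list as a bar and the 60 genes in red. The type I interferon list has a median of 0.13, beside 0.03 for all named genes (dashed line). The replication-dependent histones (-0.71) and the neuronal genes (0.69) each have 3 named genes. In both lists 2 of the 3 are among the 60 genes, so the median is a value that the rule chose. No shift of either list is read from it. *Cflar* is drawn on its brightest probe set, inside the dotted limits.

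Each list of other pathways held 2 or fewer of the 60 genes. Of 23 lists 17 had at least 3 named genes, and 25 of the 60 genes were on a list, the interferon, inflammatory and AP-1 lists included. The share of all named genes on a list was not counted, so no excess or lack is read from the 25. The 4 named genes of ER stress and the integrated stress response were all higher under hairpin 2, with a median log2 ratio of 0.37, and none passed 1.6-fold. *Ern1*, a sensor of unfolded protein, measured 1169.9 units in NT, 2123 with hairpin 1 and 2979.6 with hairpin 2. The 17 named cell cycle genes had a median log2 ratio of 0.00 to 2 decimals, with 8 higher under hairpin 2 and 9 under hairpin 1. Of 9 named cartilage matrix genes 6 were higher under hairpin 1, with a median log2 ratio of -0.30. *Hapln1* and *Vit* are among the 60 genes, while *Col2a1* and *Prg4* were past the limits but left out by symbol.

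Markers of other cell types were read from the same arrays. Of 15 macrophage and leukocyte markers 5 were named, and all 5 had lower values under hairpin 2 than under hairpin 1, with a median log2 ratio of -0.64. Past 1.6-fold were 2 of them, *Cd68* and *Gpnmb*. Among named probe sets averaging 100 units or more 2.94% were that much lower under hairpin 2. The summed intensity of the 5 was 7538 units in NT, 5702 with hairpin 1 and 3312 with hairpin 2, with *Cd68* the largest part in NT. *Cd68*, a lysosomal glycoprotein of macrophages, measured 4424, 1458 and 819.6 units, and *Gpnmb* 1848, 958 and 201 units. The lysozymes *Lyz2* and *Lyz1* went the other way from NT. They were higher than NT under both hairpins, at 488, 1974 and 1400.1 units and at 251, 1079 and 694 units. Of 11 fibroblast markers 3 were named, with a summed intensity of 6519, 15892 and 12917 units, and 0 of the 3 passed 1.6-fold between hairpins. Among 11 adipocyte markers 2 were named, with a summed intensity of 1467 units in NT, 301 with hairpin 1 and 250 with hairpin 2. Epithelial markers numbered 10, with 2 named and sums of 3756, 516 and 425 units. In both lists 0 passed 1.6-fold between hairpins. The defining leukocyte marker *Ptprc* and the other unnamed markers were not analysed here, since names came from the authors' table. The part of other cells in the differences between hairpins was not tested.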

How the data were processed

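Total RNA was hybridized to Affymetrix Mouse Gene 1.0 ST arrays, 1 array per group. Using dChip, the authors applied invariant-set normalization and deposited a model-based intensity per probe set on a linear scale, for 35512 probe sets. A second deposited table held the 1524 probe sets they selected (NT against both *Tet1* arrays, lower 90% bound past 1.5-fold, difference above 100 units, as its header states; the paper's methods give a higher fold limit), with the intensity and its standard error for NT. Its columns of folds, bounds and differences were not used. Intensities were the same in both files. The genome build in the submitters' processing notes is mm9.

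Names came from the second table, which named 1330 probe sets. Current symbols came from RefSeq (GRCm38.p6): accessions gave 1084 matches, symbols 112 and synonyms 75, while 59 probe sets went by the name in the file. Among the 60 genes these were 39, 5, 7 and 9.

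Ratios were taken on the intensities as deposited (Python 3.11.15, pandas 2.3.3, numpy 2.4.6). No test was run: each group has 1 array, and a test of both *Tet1* arrays against NT would use the difference that chose the genes as its spread. The deposited NT standard error, which covers probes and not cultures, was 0.558% to 62.9% of NT over the 60 genes (median 5.61%). Precision is limited by the number of arrays. The rule was run on simulated data with little noise, in which the planted changes lay well past the limits. That run checks the code and not the precision of these arrays. Alternatives were other limits, median scaling, quantile normalization, an offset and the choice of probe set.

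The genes named were the 10 with the largest and the 10 with the smallest ratio, those on a fixed list, those with a second probe set, those near the limits and *Tet1*. Other genes of the 60, and genes of the lists, were named after their values were seen. Genes and lists were chosen with earlier results of these data known.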

Additional observations from a re-analysis of the deposited data

Results flagged for a closer look

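Over all probe sets averaging 100 units or more, 151 were at least 1.5-fold from NT in opposite directions under the 2 hairpins, 131 of them higher under hairpin 2 and 20 higher under hairpin 1. They stood out because the knockdown arrays lay on different sides of the control, with 1 array each, so the difference was not tested. Of the 151, 0 were named in the authors' table. That 0 follows from the table, in which all 1197 named genes were on the same side of NT under both hairpins. Identifiers below the lowest named one belonged to 124 of the 151.

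Unnamed probe sets of the authors' comparison table, which entered the text above only within the shares over all probe sets, were also looked at. Of 189 averaging 100 units or more 40 were past 1.6-fold (21.2%, beside 7.45% of the named ones), 31 of them lower and 9 higher under hairpin 2. All 31 were lower than NT under both hairpins, the same order as in the 23 named genes of the second pattern, and 15 of the 40 had identifiers below the lowest named one.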

How the results depend on the processing

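With 1 array per group no array could be left out. No paired analysis was possible because no result comes from a test. The set is defined by its limits: at 2-fold between hairpins 12 genes were left, 4 higher under hairpin 2 and 8 under hairpin 1, 10 further from NT under hairpin 2 and 2 under hairpin 1. All 12 were on the same side of NT, 6 of them at least 1.5-fold higher and 6 lower than NT under each hairpin. At 1.5-fold there were 82 genes, 13 of them further from NT under hairpin 1. After median scaling 18 genes were higher under hairpin 1. All other counts stayed within 1.5 times under median scaling, quantile normalization, the offset of 32 units, a mean of at least 200 units, no filter on the mean, every named probe set, and 2 choices made after seeing the data: taking the brightest row before applying the limits (58 genes, without *Cflar* and *Ptchd1*) and excluding by current symbols (59 genes, without *Trim30d*). Of the 60 genes 50 kept the limit after median scaling, 49 after quantile normalization and 49 with the offset. In each setting 53 stayed further from NT under hairpin 2 and none changed direction. Both outcomes were fixed in advance for median scaling and the offset, so only quantile normalization could have changed them. With the offset the fold over NT moved by over 1.5 times in 5 genes, all under 100 units in NT: *Gm8979*, whose log2 folds under hairpins 1 and 2 went from 3.70 and 4.76 to 1.92 and 2.82, *Phf11a* (4.33 and 5.23 to 3.09 and 3.94), *Trim30d* (3.78 and 5.15 to 3.04 and 4.37), *Ptchd1* (4.48 and 3.80 to 3.51 and 2.86) and *Naip6* (1.37 and 2.13 to 0.91 and 1.53). A further choice of this kind, leaving out probe sets below the lowest named identifier, gave 9.19% of all probe sets past 1.6-fold, 3.22% higher and 5.97% lower under hairpin 2.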
